A study of Mus musculus with 2 samples.

Results

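The genes described here encode the mitochondrial respiratory chain and ATP synthase, in cultured mouse renal progenitors exposed to panobinostat or to vehicle. They were chosen by symbol alone: every gene of the count matrix whose symbol begins with mt-, with Nduf followed by a, b, c, s or v, with Uqcr, with Cox followed by 4 to 8, or with Atp5, together with Sdha, Sdhb, Sdhc and Sdhd. This gave 103 of 19394 genes. Of these, 13 lie on the mitochondrial genome and encode all of its proteins, and 90 lie in the nucleus. Among the nuclear genes, 81 encode subunits of complexes I to V and 9 were caught by name only. These are 8 assembly factors of complex I and Atp5s, a coupling factor that is no subunit. Cyc1, a redox subunit of complex III, falls outside the name pattern and is given with the other mitochondrial genes.

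The respiratory chain passes electrons from NADH (complex I) and succinate (complex II) through ubiquinone, complex III and cytochrome c to oxygen (complex IV), and complexes I, III and IV pump protons across the inner mitochondrial membrane. ATP synthase (complex V) uses the returning protons to make ATP. Complexes I, III, IV and V are built from subunits of both genomes: the mitochondrial genome supplies proteins at the core of the membrane parts, while the nucleus supplies the remaining core proteins and all supernumerary subunits. Complex II comes from nuclear genes alone. In the kidney, these complexes are best known for fuelling transport in the tubule.

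The cells came from glomeruli of 9-week-old C57Bl/6 mice (2 mice) that carry Pax2.rtTA and TetO.Cre with the reporter R26.mT/mG: Pax2 regulatory sequence drives the inducible Cre system, and recombined cells make GFP in place of tdTomato. GFP-positive cells were sorted from 5-day glomerular outgrowths, starved for 16 h and then held for 48 h with DMSO or with 0.2 µM panobinostat, an inhibitor of histone deacetylases. Both groups share genotype, strain, age, sorting gate and starvation. The study asked how panobinostat acts on these progenitors. Each treatment has 1 single-cell library made from the 3′ ends of mRNA, so there was no spread between samples and no test between treatments. Treatment and library cannot be told apart.

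In all, 90754967 UMIs (distinct counted molecules) came from 2854 vehicle cells, at a median of 27923.5 per cell, and 104188927 UMIs from 2281 panobinostat cells, at a median of 42394. The libraries shared 0 cell barcodes. Of the 8 markers of parietal epithelium and progenitors, 8 reached 10 CPM in vehicle cells and 7 with panobinostat, and their summed level was 8861 and 5079 CPM (UMIs per 1000000 UMIs of the library). Most of both sums came from Krt8 (4587 and 1710 CPM) and Krt18 (3301 and 2295 CPM). Ncam1 stood higher with panobinostat (60.4 and 269.1 CPM), Pax8 was nearly equal (120.2 and 119.9 CPM), and the other markers stood lower. The 6 podocyte markers with a row summed to 12.8 and 24.4 CPM, with Wt1 at 0 UMIs with vehicle. Tubule markers (5 with a row) summed to 0.771 and 13 CPM, with Umod at 0 UMIs with vehicle, and the 5 mesangial markers to 0.837 and 7.89 CPM. Lrp2 alone made up 0.650 and 11.7 CPM of the tubule sums. The 5 endothelial markers summed to 9.08 and 3.19 CPM, where Emcn (6.68 and 0.0864 CPM) and Kdr (0.793 and 2.57 CPM) went opposite ways. The 3 leukocyte markers summed to 5.17 and 68.1 CPM, of which Cd68, a lysosomal protein, made up 65.5 CPM in panobinostat cells. The part of these cell types in the results below was not tested.

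Transcripts of both genomes took a larger share of the library with panobinostat. The 13 mitochondrial-genome genes made up 5.35% of UMIs with vehicle and 6.88% with panobinostat, a log2 ratio of 0.36. The 81 nuclear subunits made up 1.95% and 2.76%, a log2 ratio of 0.50. Because the mean cell of the panobinostat library held 45677 UMIs against 31799, the difference per cell was larger: 1700 and 3143 mitochondrial-genome UMIs per cell (1.85-fold), and 619 and 1259 nuclear subunit UMIs per cell (2.03-fold). Ratios of CPM are relative to the whole library. Whether the larger number of UMIs per cell reflects more RNA or deeper sampling was not tested.

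A call needed a difference in CPM of 2-fold or more, an exact 95% interval without equality and a floor of 10 CPM in either library. These intervals cover counting error only. Of the 81 nuclear subunits 77 passed the 10 CPM floor, and 9 of these were called higher and 0 lower with panobinostat. Among all 8872 genes past the floor, 9.85% were called higher and 11.0% lower. The 9 of 77 is therefore close to the share among all genes, while no subunit was called lower. With TMM factors, DESeq2 size factors or G1-scored cells alone, 7 were called higher, beside 8.57%, 8.49% and 8.94% of all genes (13.6%, 13.8% and 7.14% were lower). At 1.5-fold, 33 of 77 were higher and 0 lower, against 19.3% and 23.2% of all genes. The centre of the distribution lay elsewhere than that of all genes: 62 of 77 nuclear subunits (log2 ratio above 0) stood higher with panobinostat, against 46.3% of all genes, and their median log2 ratio was 0.41 against -0.07. The interval lay wholly above 0 for 61 of them and wholly below for 14, against 42.5% and 50% of all genes. All 13 mitochondrial-genome genes passed the floor and 0 were called, with a median of 0.36. Over all cells 12 of 13 lay above 0, but 10 did with TMM factors, with DESeq2 size factors or over G1-scored cells, and 6 over cells under 5% mitochondrial UMIs. Cox6b2, Cox7a1 and Atp5s passed the floor through the panobinostat library alone, and Ndufaf5 through the vehicle library alone. Cox4i2, Cox6a2, Cox7b2 and Ndufa4l2 stayed below the floor in both libraries.

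**Figure D1:**
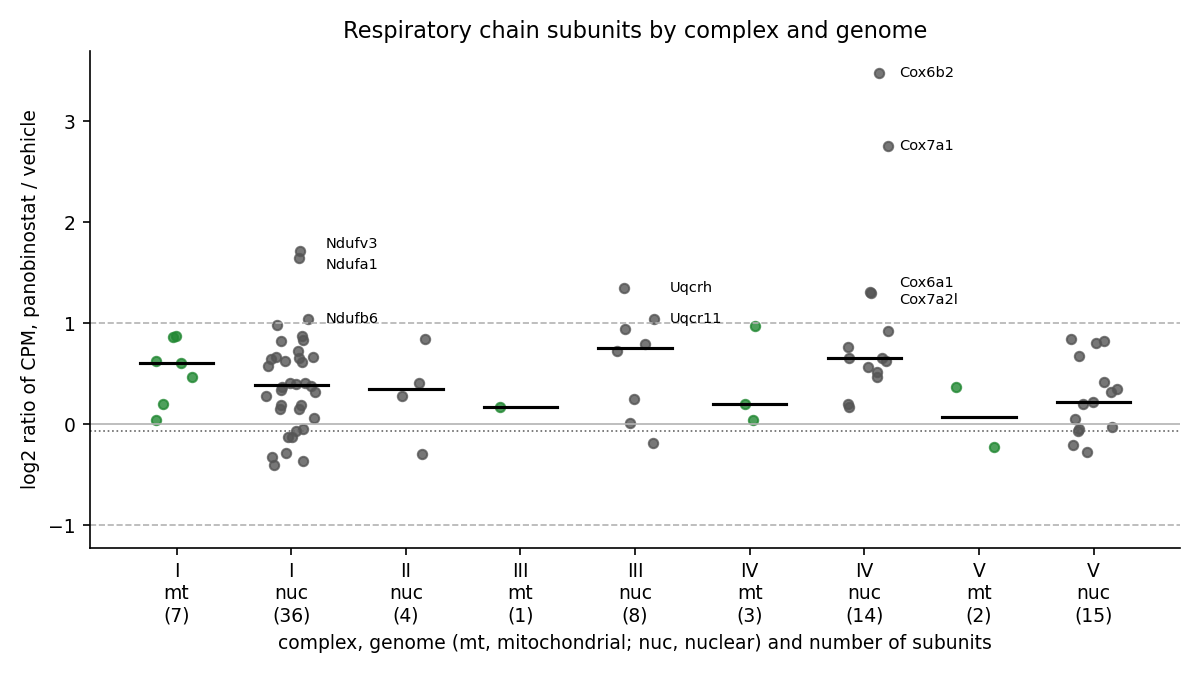
Log2 ratio of CPM, panobinostat over vehicle, of every subunit past the floor of 10 CPM (y axis), arranged by complex and genome with the number of subunits in brackets (x axis). Each point is 1 gene, thick bars are medians, dashed lines mark 2-fold and the dotted line marks the median of all genes (-0.07). The nuclear medians run from 0.22 in complex V to 0.76 in complex III, and Cox6b2 and Cox7a1 lie highest.

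In complex I, the entry point for electrons from NADH, 36 nuclear subunits were measured. Of these, 3 were called higher and 0 lower, against 9.85% and 11.0% of all genes, so the higher calls were near the share among all genes. The median log2 ratio was 0.39. The called genes are accessory subunits, which surround the catalytic core. Ndufv3, at the NADH-oxidising end, stood at 57.7 CPM in vehicle cells and 189.2 CPM in panobinostat cells (log2 ratio 1.71, 95% interval 1.67 to 1.76). Ndufa1, a small membrane-anchored subunit encoded on the X chromosome, stood at 62.5 and 195.3 CPM (1.64, interval 1.60 to 1.69). Both genes were therefore about equally far from equality, at 3.28-fold and 3.12-fold. Ndufb6, in the membrane arm, stood at 163.0 and 335.0 CPM (1.04, interval 1.01 to 1.07), close to the 2-fold line. Its call ended with TMM factors (0.92), with DESeq2 size factors (0.91), over G1-scored cells (0.89) and over cells of 20000 to 50000 UMIs (0.998). Just under the line was Ndufa7, another accessory subunit, with 249.2 and 491.4 CPM (0.98).

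The 7 nuclear core subunits of complex I, which carry the flavin and the iron-sulfur clusters, had a median log2 ratio of 0.06, against 0.41 for the 29 accessory subunits. The core divides by position. At the NADH-oxidising end, Ndufv1, which holds the flavin, stood at 92.4 and 168.8 CPM (log2 ratio 0.87). Ndufv2 stood at 129.0 and 171.2 CPM (0.41), and Ndufs1 at 50.4 and 48.9 CPM (-0.05, with an interval of -0.10 to 0.01 that includes equality). So the 3 genes of this end ran from no detectable difference at this depth to 1.83-fold. In the part that reduces ubiquinone, Ndufs7 stood at 134.9 and 149.7 CPM (0.15). Ndufs3 stood at 113.8 and 90.6 CPM (-0.33) and Ndufs8 at 92.4 and 75.8 CPM (-0.29). Ndufs3 and Ndufs8 thus stood lower with panobinostat and Ndufs7 higher. The lowest of all nuclear subunits were Ndufb8 (214.6 and 162.4 CPM, log2 ratio -0.40) and Ndufb5 (174.3 and 135.0 CPM, -0.37), accessory subunits of the membrane arm. In total, 8 of the 36 genes had a ratio below 0, and all were under 2-fold. Ndufs1 changed sign under some alternatives, while Ndufs3, Ndufs8, Ndufb8 and Ndufb5 kept theirs under every alternative run.

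The 8 assembly factors caught by the pattern, which help build complex I without staying in it, had a median log2 ratio of -0.02, with 4 above 0 and 4 below. Ndufaf2 was highest, at 53.3 and 99.7 CPM (0.90). It stood at 41.0 and 99.6 CPM (1.28) over G1-scored cells and passed 2-fold there. Ndufaf4 was lowest, at 60.1 and 43.2 CPM (-0.48), followed by Ndufaf6 at 16.6 and 12.5 CPM (-0.41).

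Complex II, which feeds electrons from succinate into ubiquinone and also works in the tricarboxylic acid cycle, had 0 of 4 genes called and a median of 0.35. Among all genes past the floor, 9.85% were called higher and 11.0% lower. Sdha, the flavoprotein, stood at 95.8 CPM in vehicle cells and 116.5 CPM in panobinostat cells (log2 ratio 0.28). Sdhb, the iron-sulfur protein, stood at 143.4 and 190.5 CPM (0.41). The membrane anchors went opposite ways. Sdhc stood at 107.6 and 193.1 CPM (0.84), and Sdhd at 89.6 and 73.1 CPM (-0.29). The interval of Sdhd was -0.34 to -0.25, but over G1-scored cells its log2 ratio was 0.00405.

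Complex III, which passes electrons from ubiquinol to cytochrome c, had the highest nuclear median (0.76) with 2 of 8 genes called higher and 0 lower. Among all genes the shares were 9.85% and 11.0%, and 8 genes are few for such a comparison. Uqcrh, the hinge protein near the cytochrome c docking site, stood at 316.5 CPM in vehicle cells and 806.5 CPM in panobinostat cells (log2 ratio 1.35, interval 1.33 to 1.37). Uqcr11, a small peripheral subunit, stood at 259.7 and 534.5 CPM (1.04, interval 1.02 to 1.06). The call of Uqcr11 ended with TMM factors (0.92), with DESeq2 size factors (0.91) and over G1-scored cells (0.93). Uqcrq, a small subunit next to cytochrome b, followed at 322.1 and 618.1 CPM (0.94), and Uqcrfs1, the Rieske iron-sulfur protein that does the electron transfer, at 195.5 and 322.4 CPM (0.72). At the other end were the large matrix-side proteins. Uqcrc1 stood at 206.3 and 207.4 CPM (0.01, interval -0.02 to 0.04) and Uqcrc2 at 186.4 and 221.8 CPM (0.25). Uqcrb, which binds ubiquinone, was the 1 gene of the complex below 0, at 303.8 and 267.0 CPM (-0.19).

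Complex IV, cytochrome c oxidase, reduces oxygen to water. Its 11 general supernumerary subunits, which form the shell around the catalytic core, all had a ratio above 0 (median 0.63). Over all 14 nuclear subunits of complex IV past the floor, 4 were called higher and 0 lower, with a median of 0.65. Among all genes the shares were 9.85% and 11.0%, and 14 genes are few for such a comparison. Of the 11 general subunits, 1 was called higher and 0 lower. The called gene was Cox6a1, the widely expressed form of subunit 6a, at 247.2 CPM in vehicle cells and 610.3 CPM in panobinostat cells (log2 ratio 1.30, interval 1.28 to 1.33). Next came Ndufa4, named for complex I but assigned to complex IV, at 502.2 and 952.8 CPM (0.92), and Cox8a at 558.4 and 951.2 CPM (0.77). Lowest were Cox5a, at 792.1 and 912.5 CPM (0.20), and Cox5b, at 277.2 and 312.0 CPM (0.17). Cox7a2l, which can join complex III to complex IV in a supercomplex, was also called higher. It stood at 335.1 and 821.7 CPM (1.29, interval 1.27 to 1.31). Cox4i1, at 1035 and 1478 CPM (0.51), stayed under 2-fold.

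Complex IV also has isoforms that replace a general subunit in certain tissues, and the largest ratios of all members lay here. Cox6b2, known as the testis form of subunit 6b (chr7:4751792-4753094 on GRCm38, GENCODE M21), stood at 9.47 CPM in vehicle cells and 105.1 CPM in panobinostat cells. This is 859 against 10948 UMIs, a log2 ratio of 3.47 (interval 3.37 to 3.57, 11.1-fold). Cox7a1, known as the heart and skeletal muscle form of subunit 7a (chr7:30184144-30186078), stood at 3.80 and 25.6 CPM, or 345 and 2672 UMIs (2.75, interval 2.59 to 2.92, 6.75-fold). Each lay below 10 CPM in vehicle cells, so each could be called only in the higher direction. Over G1-scored cells the ratios were 2.86 for Cox6b2 and 2.55 for Cox7a1, from vehicle levels of 14.5 and 4.38 CPM.

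The general partners also stood higher, so the isoforms' shares of each pair were compared. Libraries of 3′ ends count 1 end per molecule, so counts were not divided by length, and a pair is compared only with itself across libraries. Cox6b2 made up 2.35% of the UMIs of Cox6b2 and Cox6b1 with vehicle (2.20 to 2.51%, exact binomial interval at 95%) and 14.5% (14.3 to 14.8%) with panobinostat. Cox6b1 itself stood at 393.4 and 618.7 CPM (log2 ratio 0.65). Cox7a1 made up 1.17% (1.05 to 1.30%) and 4.85% (4.67 to 5.03%) of its pair with Cox7a2, which stood at 319.9 and 503.5 CPM (0.65). The general form thus remained the main transcript of each pair in both libraries.

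The remaining isoforms were scarce. Cox4i2, the form of subunit 4 known from lung and low oxygen, had 18 UMIs with vehicle and 120 with panobinostat, 0.0192% and 0.0778% of the pair with Cox4i1. Its log2 ratio was 2.54 (interval 1.82 to 3.34). Ndufa4l2, known to be induced by low oxygen, had 9 and 32 UMIs (1.63, interval 0.53 to 2.88). The 9 vehicle UMIs lay in 2 cells and the 32 panobinostat UMIs in 24. Cox7b2, a testis form, had 2 and 5 UMIs, a log2 ratio of 1.12 with an interval of -1.49 to 4.52. Cox6a2, the muscle form, had 0 and 5 UMIs, where 0 UMIs allow up to 0.0331 CPM (3 counts), so no difference was detectable. The panobinostat library held more UMIs in all. Without a floor, the median log2 ratio of all genes was 0.18, and 21.5% were called higher and 9.64% lower. More UMIs of a scarce isoform with panobinostat are therefore not read as a pattern. Only 2 of the 6 isoforms passed the floor. Among the muscle and testis forms, Cox6b2 and Cox7a1 passed it, while Cox7b2 and Cox6a2 were too scarce to compare.

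Both isoforms were spread over the cells. Cells were thinned at random to 18663 UMIs each, leaving out 453 vehicle and 60 panobinostat cells with fewer. After thinning, a UMI of Cox6b2 was present in 11.7% (10.4 to 13%) of the 2401 vehicle cells left and in 79.8% (78.1 to 81.5%) of the 2221 panobinostat cells. Without thinning the shares were 16.0% and 93.3%. For Cox7a1 the thinned shares were 7.04% and 36.0%, and 10.7% and 58.6% without thinning. No cell type that should lack these genes was present in either library, so the share that free RNA gives was not measured.

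Complex V, ATP synthase, had 0 of 15 nuclear genes called and the lowest nuclear median of the complexes, 0.22. Of all genes, 9.85% were called higher and 11.0% lower. In the catalytic head and central stalk (5 genes, median 0.22), Atp5b, the catalytic beta subunit, stood at 885.0 CPM in vehicle cells and 843.3 CPM in panobinostat cells (log2 ratio -0.07). The membrane ring of c subunits is encoded by 3 genes whose mature proteins are the same. Atp5g2 stood at 511.7 and 423.7 CPM (-0.27) and Atp5g1 at 346.2 and 300.7 CPM (-0.20). Atp5g3 stood at 238.3 and 272.9 CPM (0.20), so the ring genes summed to 1096 and 997.3 CPM (-0.14). The 3 highest ratios lay among subunits of the membrane part and the peripheral stalk. Atp5l stood at 319.4 and 574.9 CPM (0.85) and Atp5k at 260.8 and 460.1 CPM (0.82), both in the membrane part near the dimer contact. Atp5h, of the peripheral stalk, stood at 355.9 and 620.9 CPM (0.80). Not all genes of these parts stood higher. Atp5j2, also in the membrane part, stood at 289.2 and 279.3 CPM (-0.05). The 4 stalk genes all had ratios above 0 over all cells (median 0.51), but Atp5o-1 stood at only 0.05. Its ratio fell below 0 in at least 1 alternative (lowest -0.08). The stalk gene listed as Atp5o-1 stands for 1 of 2 overlapping loci of the same name, and which of them is not known. Many genes of these complexes have processed pseudogenes, and no source used here says how reads with several matches were counted, so their levels are uncertain to that extent.

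The mitochondrial genome is transcribed as long precursors that are cut into mRNAs, and these mRNAs carry short poly(A) tails that 3′ libraries can capture. The 3′ ends of the coding sequence of mt-Co1, mt-Nd4, mt-Nd5 and mt-Atp6 are shown because these genes had the highest ratios and the lowest of the 13. They are the last 60 bases on chromosome M of GRCm38 (GENCODE M21), 5′ to 3′ on the coding strand, with the stop signal in capitals. The stop of mt-Nd4 is a T that the poly(A) tail completes, as it is for mt-Co3 and mt-Cytb.
mt-Co1 (chrM:6813-6872): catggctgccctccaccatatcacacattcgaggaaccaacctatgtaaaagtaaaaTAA
mt-Nd4 (chrM:11485-11544): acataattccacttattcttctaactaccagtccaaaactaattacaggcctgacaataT
mt-Nd5 (chrM:13506-13565): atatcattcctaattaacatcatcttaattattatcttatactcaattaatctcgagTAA
mt-Atp6 (chrM:8548-8607): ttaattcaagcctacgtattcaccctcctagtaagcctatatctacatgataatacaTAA

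These genes did not move as a block. mt-Co1, the catalytic subunit of complex IV, stood at 9463 CPM in vehicle cells and 18564 CPM in panobinostat cells (log2 ratio 0.97, interval 0.968 to 0.976), just under 2-fold. It passed 2-fold when ratios were centred on the median gene (1.04) or totals left out all members (1.01). mt-Co2, which receives electrons from cytochrome c in the same complex, stood at 7442 and 7654 CPM (0.04), and mt-Co3 at 11116 and 12783 CPM (0.20). The 3 core subunits of 1 enzyme thus had quite different ratios.

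Among the 7 complex I genes of the mitochondrial genome, mt-Nd5 stood at 391.0 and 714.4 CPM (0.87) and mt-Nd4 at 3212 and 5858 CPM (0.87). mt-Nd4l, whose reading frame overlaps mt-Nd4, stood at 291.9 and 449.2 CPM (0.62). These 3, with mt-Nd6, the only coding gene on the light strand (30.8 and 46.7 CPM, 0.60), form the upper group of complex I. mt-Nd2 stood at 3004 and 4152 CPM (0.47), mt-Nd1 at 3864 and 4442 CPM (0.20) and mt-Nd3 at 905.5 and 929.7 CPM (0.04). All 7 encode proton-pumping or ubiquinone-binding parts of the membrane arm. mt-Cytb, the cytochrome b of complex III, stood at 5349 and 6016 CPM (0.17). In complex V, mt-Atp8 stood at 48.6 and 62.6 CPM (0.36) and mt-Atp6 at 8335 and 7127 CPM (-0.23). mt-Atp6, which forms the proton channel, stood lower with panobinostat, although both lie on a shared transcript with overlapping frames. It was the 1 mitochondrial-genome gene below 0 over all cells without scaling factors. With TMM or DESeq2 factors mt-Co2 and mt-Nd3 also lay below 0, and over G1-scored cells mt-Co2 (-0.11) and mt-Cytb (-0.04) did. Reads from overlapping ends (mt-Atp8 with mt-Atp6, mt-Nd4l with mt-Nd4) cannot be fully told apart, nor can mt-Nd6 from mt-Nd5 unless strand was used.

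**Figure D2:**
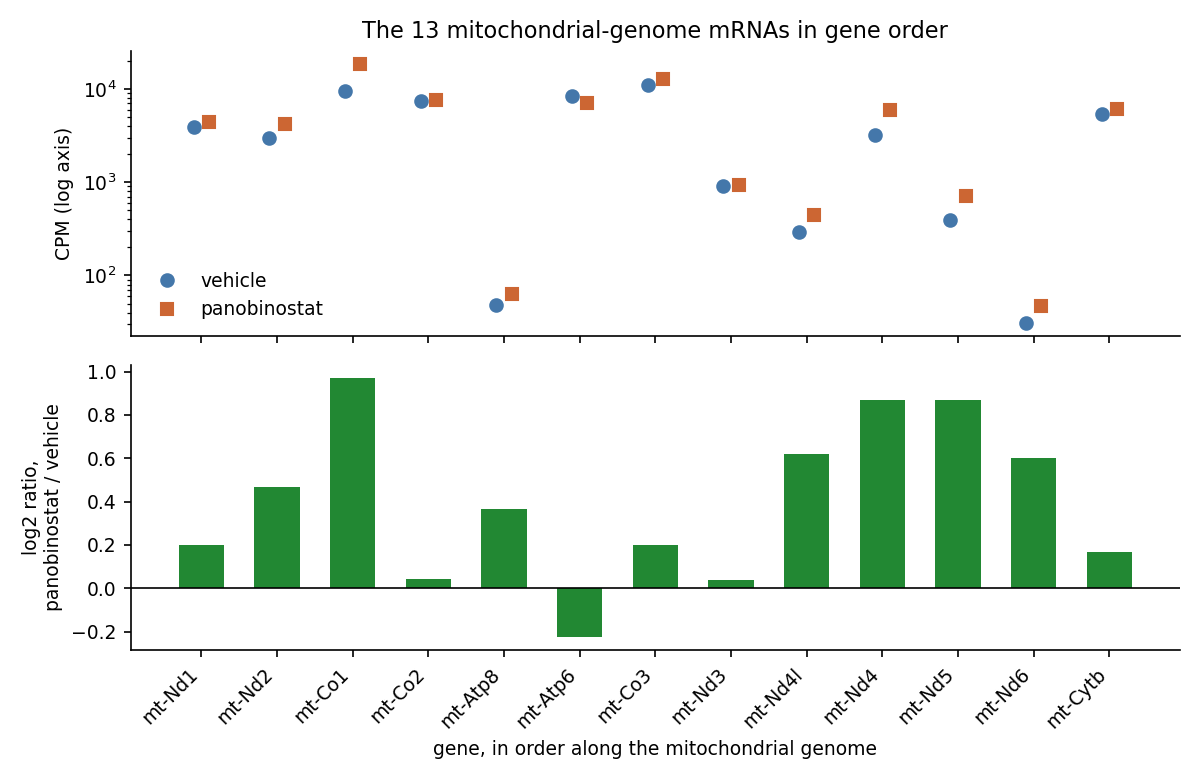
The 13 mitochondrial-genome genes in genome order (x axis): CPM in each library on a log axis (upper panel) and the log2 ratio of CPM, panobinostat over vehicle, as bars from 0 (lower panel). There is 1 library per treatment, so no error is drawn. mt-Co1 (0.97), mt-Nd4 and mt-Nd5 (both 0.87) lie highest and mt-Atp6 (-0.23) lowest.

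Within the mitochondrial genome's own UMIs, the share of mt-Co1 was 17.7% with vehicle and 27.0% with panobinostat, and that of mt-Atp6 was 15.6% and 10.4%. Among cells with at least 100 mitochondrial-genome UMIs, mt-Co1 outnumbered mt-Atp6 in 1662 of 2827 vehicle cells (58.8%) and in 2253 of 2273 panobinostat cells (99.1%). In vehicle cells this share was 69.6% in those scored G1, 51.2% in S and 54.1% in G2/M. mt-Co1 and mt-Atp6 had the highest and lowest ratios of the mitochondrial-genome genes in these same cells. The counts of cells describe that contrast and are no separate support for it. The share of mt-Co1 per cell had a 10th percentile, median and 90th percentile of 13.6%, 16.9% and 21.6% with vehicle and of 20.1%, 26.4% and 34.6% with panobinostat. The vehicle 90th percentile lay above the panobinostat 10th percentile, so the ranges overlapped at their edges.

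The 3 longest genes, mt-Nd5 (1824 bases), mt-Co1 (1545) and mt-Nd4 (1378), had the 3 highest ratios. Over all 13 genes the Spearman correlation of ratio with length was 0.45, given as a description because all points share 2 libraries. The correlation with the longest run of A in each gene was 0.40. Their ratios stayed above 0 and that of mt-Atp6 below 0 in every alternative run, from 0.73 to 1.04 for mt-Co1 and from -0.84 to -0.16 for mt-Atp6. Those of mt-Nd1, mt-Co2, mt-Co3, mt-Nd3, mt-Cytb and mt-Atp8 changed sign in at least 1, so no direction is given for these genes. Over G1-scored cells alone, mt-Co1 stood at 0.73, mt-Nd5 at 0.68, mt-Nd4 at 0.62 and mt-Atp6 at -0.33.

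The cells had been selected before deposit, with no cell above 9.98% mitochondrial UMIs in either library. Of the vehicle cells 75 (2.63%) and of the panobinostat cells 161 (7.06%) lay at 9% or more. Cells beyond that limit were not analysed here, and their part in the difference between libraries was not tested. Restricted to cells of 1 to 9%, chosen after seeing the data, the summed mitochondrial-genome log2 ratio was 0.35.

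Per cell, the mitochondrial-genome share overlapped widely between libraries and the nuclear share did not. The mitochondrial-genome share had a 10th percentile, median and 90th percentile of 3.72%, 5.10% and 7.28% with vehicle and 5.17%, 6.96% and 8.73% with panobinostat. The corresponding values for the nuclear subunits were 1.69%, 1.94% and 2.26% with vehicle and 2.41%, 2.74% and 3.12% with panobinostat. The vehicle 90th percentile thus lay below the panobinostat 10th percentile. Of the vehicle cells, 152 (5.33%) lay above the panobinostat 10th percentile of the nuclear share, against 1355 (47.5%) for the mitochondrial-genome share.

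**Figure D3:**
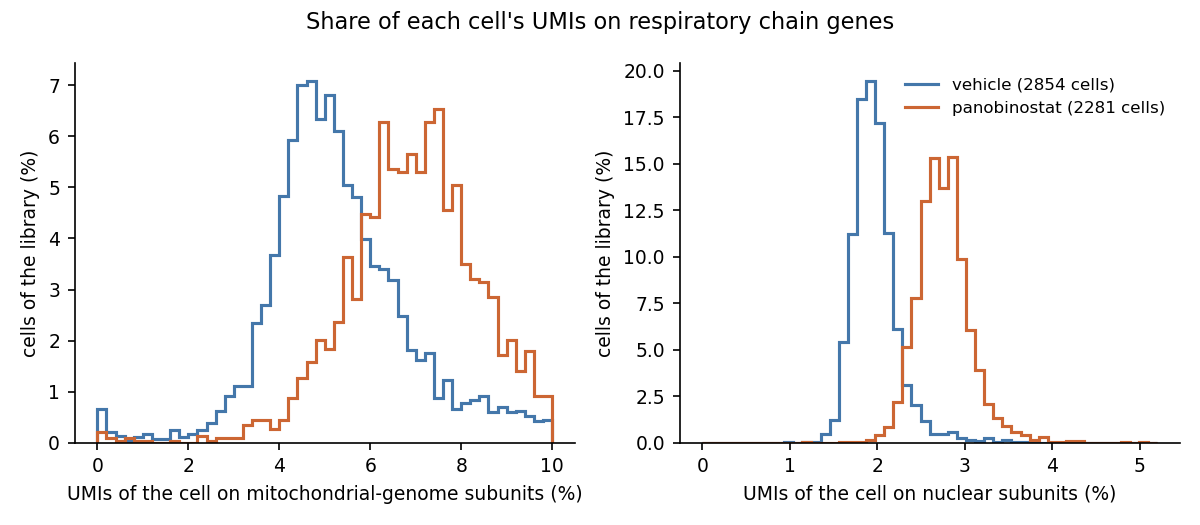
Percent of each library's cells (y axes) by the percent of a cell's UMIs on the 13 mitochondrial-genome genes (left, x axis) or the 81 nuclear subunits (right, x axis), as outlines for vehicle and panobinostat. The medians are 5.10% and 6.96% on the left and 1.94% and 2.74% on the right, where the outlines overlap less.

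The libraries differed in cell cycle, and this moved with the mitochondrial-genome share inside the vehicle library. Of the panobinostat cells 2276 of 2281 were scored G1, against 1020 of 2854 vehicle cells, and in 257 vehicle cells the higher of the S and G2/M scores lay within 0.05 of the G1 boundary. The vehicle medians of the mitochondrial-genome share were 5.88% in G1, 4.91% in S and 4.74% in G2/M, and those of the nuclear share were 2.00%, 1.93% and 1.90%. Panobinostat cells scored G1 had 6.96% and 2.74%. Over G1-scored cells the summed log2 ratio was 0.20 for the mitochondrial genome and 0.46 for the nuclear subunits, against 0.36 and 0.50 over all cells. The part of phase in the difference between libraries was not tested. Depth moved little with the shares. In cells of 20000 to 30000 UMIs the medians were 5.13% and 7.09% for the mitochondrial genome and 1.97% and 2.72% for the nuclear subunits, and in cells of 40000 to 50000 UMIs they were 5.21% and 7.01%, and 1.90% and 2.75%.

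Across the cells of a library, the shares on the nuclear and the mitochondrial genome were nearly unrelated. Pearson's r was -0.06 over the 2854 vehicle cells and -0.10 over the 2281 panobinostat cells, and Spearman's rho was 0.09 and -0.05. After thinning, r was 0.08 and -0.09. These are descriptions: cells of a library share its depth and free RNA.

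Clustering without the members gave 10 clusters, most of them from 1 library. Clusters 2, 3, 5, 6 and 7 held vehicle cells alone, and clusters 1 and 8 panobinostat cells alone. Cluster 4 held 659 panobinostat cells and 1 vehicle cell. Cluster 3 (leading genes Ube2c, Top2a, Cenpe) and cluster 5 (Top2a, Mki67, Plac8) carried genes of dividing cells, and cluster 2 (Acta2, Tgm2, Acta1) and cluster 9 (Acta1, Myl9, Acta2) genes of the contractile cytoskeleton. Within the vehicle library the mitochondrial-genome median ran from 4.60% in cluster 7 (Aqp1, Folr1, Havcr1) to 6.32% in cluster 6 (Plac8, Spink8, Cavin3). The nuclear medians of these 5 clusters stayed between 1.87% and 1.99%. In the panobinostat clusters 1 (Cldn16, Timp3), 4 (Kitl, Pmp22, Clu) and 8 (Sbsn, Pdpn, Vim), the mitochondrial-genome median ran from 6.50% to 7.24% and the nuclear median from 2.70% to 2.74%.

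Clusters 9 and 10 stood apart. Cluster 10 (Pltp, Gal, Dcxr) held 56 panobinostat and 8 vehicle cells, with nuclear medians of 3.17% and 2.14%. Cluster 9 held 94 vehicle and 6 panobinostat cells of low depth (median 14800 UMIs). Its mitochondrial-genome median was 2.15% and its nuclear median 2.71%. Of the cells under 1% mitochondrial UMIs, 28 of 33 vehicle and 6 of 11 panobinostat cells were in cluster 9. Such cells had higher nuclear shares (medians 2.67% with vehicle and 3.76% with panobinostat) than the other cells (1.94% and 2.74%). Leaving out cluster 9 gave summed log2 ratios of 0.35 and 0.51, close to 0.36 and 0.50 with it.

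**Figure D4:**
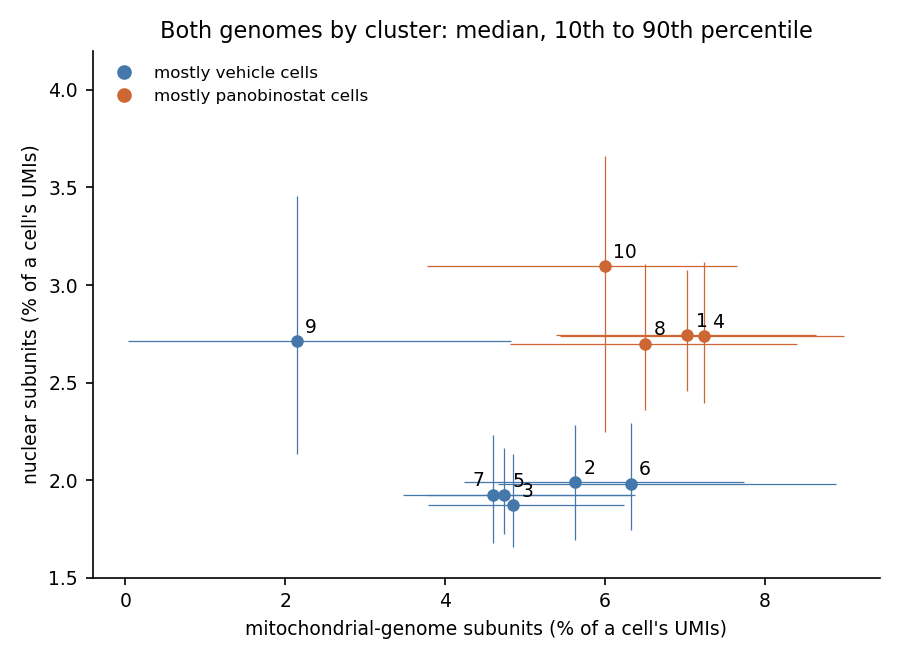
Median share of a cell's UMIs on mitochondrial-genome genes (x axis, percent) and nuclear subunits (y axis, percent) in the 10 numbered clusters, with lines from the 10th to the 90th percentile of cells. Clusters of mostly panobinostat cells lie at nuclear medians of 2.70% or more and those of mostly vehicle cells at 1.99% or less, except cluster 9 at 2.71%.

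The called nuclear subunits were higher in every panobinostat cluster than in any vehicle cluster of at least 50 cells. These genes were called on the same cells, and most clusters held either vehicle or panobinostat cells alone. The levels by cluster therefore describe the difference between libraries and are no separate support for it. Cox6b2 ran from 6.3 to 16.1 CPM in 6 vehicle clusters and from 94.0 to 158.6 CPM in 4 panobinostat clusters. Cox7a1 ran from 2.5 to 5.9 and from 21.0 to 74.7 CPM, and both isoforms were highest in cluster 10. Uqcrh ran from 286.1 to 368.0 and from 780.7 to 902.6 CPM, and Cox7a2l from 266.2 to 551.8 and from 810.3 to 975.1 CPM. mt-Co1 was also separate, at 4107 to 12867 and 16300 to 21144 CPM. Ndufb8 was separate in the other direction, at 191.8 to 281.4 CPM in vehicle clusters and 149.6 to 182.1 CPM in panobinostat clusters. The clusters overlapped for mt-Atp6, at 3969 to 9388 and 6381 to 7337 CPM, and for the nuclear Ndufs3, at 106.2 to 135.2 and 77.6 to 143.9 CPM.

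**Figure D5:**
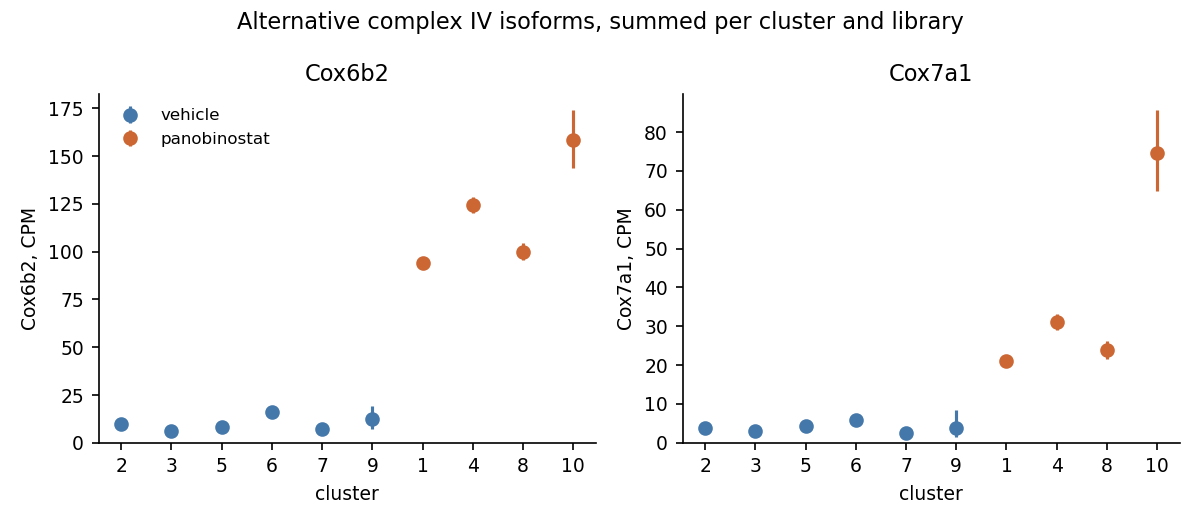
Cox6b2 and Cox7a1 in CPM (y axes) summed over the cells of each cluster (x axes, cluster numbers), vehicle in blue and panobinostat in orange. Error bars are exact 95% intervals that cover counting error only. The vehicle clusters reach at most 16.1 CPM for Cox6b2 and 5.9 CPM for Cox7a1, below every panobinostat cluster.

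Lists of other mitochondrial genes were set beside the subunits. Their median log2 ratios lay between -0.19 and 0.13, and most changed sign under at least 1 alternative. Import stayed below 0 (-0.32 to -0.06) and the list of cristae, fusion, fission and mitophagy at or above 0 (0.001 to 0.31). TMM factors subtract 0.12 and DESeq2 size factors 0.13 from every log2 ratio (all-gene medians -0.18 and -0.19), which ends calls near 2-fold.

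The counts of calls in these lists stand beside 9.85% higher and 11.0% lower among all genes past the floor. The mitochondrial ribosome, which translates the mRNAs of the mitochondrial genome, had 77 genes past the floor, with 2 higher, 0 lower and a median of -0.07. Both are smaller shares than among all genes. Mrpl33 stood at 223.4 CPM in vehicle cells and 507.3 CPM in panobinostat cells (1.18). Mrpl24 stood at 83.2 and 173.6 CPM (1.06, a call that ended with both scalings and in G1-scored cells), and Mrpl12 was lowest at -0.95. Import into mitochondria had 29 genes, with 1 higher, 0 lower and a median of -0.19. Timm10b stood at 36.2 and 73.2 CPM (1.02, ended by both scalings), and Timm8a1 was lowest at -0.996, just under 2-fold. Over 49 genes of respiratory chain assembly, which include the 8 Ndufaf genes, 3 were higher and 1 lower, with a median of -0.05. Pet100 (62.8 and 153.7 CPM, 1.29) and Cox17, a copper carrier for complex IV (47.2 and 101.6 CPM, 1.10), were higher. So was Sdhaf3, for complex II, at 14.5 and 30.8 CPM (1.08). The calls of Cox17 and Sdhaf3 ended with both scalings, and that of Sdhaf3 also over G1-scored cells (0.93). Sco2, which delivers copper to complex IV, was lower at 35.3 and 9.95 CPM (-1.82), and at -1.94 over G1-scored cells. It passed the floor through vehicle alone.

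The tricarboxylic acid cycle, which supplies NADH and succinate, had 0 of 18 genes higher, 1 lower and a median of 0.10. Suclg2, of succinyl-CoA ligase, stood at 82.0 and 40.7 CPM (-1.01) and dropped under 2-fold in 7 alternatives. Pdha1, of pyruvate dehydrogenase, stood at -0.93 and Mdh2, malate dehydrogenase, at 0.92. Among 20 genes of cytochrome c, ubiquinone and other electron entry (median -0.03), 2 were higher and 2 lower. Sqor, which feeds electrons from sulfide into ubiquinone, stood at 23.7 and 80.6 CPM (1.77). Etfb, which carries electrons from fatty acid oxidation, stood at 101.8 and 262.2 CPM (1.37), and both stayed past 2-fold in G1-scored cells (1.41 and 1.27). Coq2 (62.2 and 29.7 CPM, -1.06) and Pdss1 (12.7 and 5.89 CPM, -1.11), of ubiquinone synthesis, were lower, but over G1-scored cells they stood at -0.77 and -0.16. Pdss1 passed the floor through vehicle alone. Cycs, cytochrome c, stood at 222.5 and 237.2 CPM (0.09) and Cyc1 at 202.5 and 239.1 CPM (0.24).

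Genes that maintain and transcribe mitochondrial DNA had 0 of 21 higher, 2 lower and a median of -0.13. Mgme1, an exonuclease of mitochondrial DNA, stood at 10.6 and 0.758 CPM (-3.81) and passed the floor through vehicle alone. Polg, the DNA polymerase, stood at 26.4 and 11.9 CPM (-1.15). Over G1-scored cells Polg stood at -0.90, and Mgme1 at 3.05 and 0.75 CPM, below the floor. Tfam, which packages the genome and starts its transcription, stood at 33.5 and 32.9 CPM (-0.02, interval -0.09 to 0.05) over all cells and at 0.48 over G1-scored cells. Polrmt, the RNA polymerase, lay under the floor at 9.09 and 9.28 CPM.

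The nuclear regulators had 2 of 14 genes higher, 2 lower and a median of -0.17. Each of these 4 passed the floor only through the library where it was higher, so each could be called in 1 direction alone. Ppargc1a, the coactivator known for driving mitochondrial biogenesis, stood at 1.32 CPM in vehicle cells and 13.9 CPM in panobinostat cells (3.40, interval 3.13 to 3.68). Over G1-scored cells it stood at 3.53. Ppard, a nuclear receptor of fat oxidation genes, stood at 7.21 and 16.0 CPM (1.15). The related coactivator Pprc1 stood at 23.7 and 7.63 CPM (-1.64), and at -1.22 over G1-scored cells. Gabpb2, a partner of the ETS factor Gabpa, stood at 17.0 and 6.74 CPM (-1.34), and at -0.61 over G1-scored cells. Nrf1 stood at 22.6 and 12.7 CPM (-0.83) over all cells, but at 13 and 12.7 CPM (-0.03) over G1-scored cells. Gabpa stood at 15.6 and 11.0 CPM (-0.51) and Esrra at 25.7 and 18.2 CPM (-0.50). Several of the lower regulators and DNA genes thus lay closer to equality when vehicle cells in S and G2/M were left out.

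Genes of cristae, fusion, fission and mitophagy had 4 of 21 higher, 0 lower and a median of 0.13, beside 9.85% higher and 11.0% lower among all genes. Of the 4, 2 lost their call with either scaling. Bnip3, a mitophagy receptor, stood at 6.64 and 39.4 CPM (2.57) and passed the floor through panobinostat alone. Its relative Bnip3l stood at 150.3 and 323.1 CPM (1.10) and Chchd6, of the cristae junction complex, at 33.3 and 71.7 CPM (1.11), both under 2-fold with either scaling. Over G1-scored cells Bnip3l stood at 0.83, under 2-fold, and Chchd6 at 1.24. Chchd10, a small protein of the space between the membranes, stood at 69.2 and 286.2 CPM (2.05), and stayed past 2-fold in every alternative run. Among 14 uncoupling, carrier and antioxidant genes, 0 were higher and 2 lower, with a median of -0.07. Slc25a5, an ADP/ATP carrier, stood at 463.0 and 208.5 CPM (-1.15), and at -0.80 over G1-scored cells. Txnrd2, the mitochondrial thioredoxin reductase, stood at 18.0 and 4.45 CPM (-2.02), and passed the floor through vehicle alone.

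The promoters of nuclear subunits are known to be read by NRF1 and by ETS factors such as GABPA. Windows of 300 bases around the start (250 before, 50 after; RefSeq, GRCm38.p6) were found for 72 of 90 nuclear members, 65 of them subunits. The NRF1 letters, GCGCA and GCGC with any base between them, on either strand, were in 16 of 65 subunit windows (24.6%), against 5.19% of all promoters and 13% of those of genes past the floor. The ETS letters CCGGAAG, on either strand, were also in 16 of 65 (24.6%), against 9.93% and 23.1%. Of the 9 called subunits, 1 (Cox6a1) held the NRF1 letters and 4 (Cox6a1, Ndufb6, Uqcr11 and Uqcrh) the ETS letters. The 250 bases before the start are shown for the 2 isoforms with the largest ratios, which hold neither in the window, and for 2 called general subunits that do, with matches in capitals (either strand, 5′ to 3′ on the gene's strand).
Cox6b2 (chr7:4753095-4753344, minus strand): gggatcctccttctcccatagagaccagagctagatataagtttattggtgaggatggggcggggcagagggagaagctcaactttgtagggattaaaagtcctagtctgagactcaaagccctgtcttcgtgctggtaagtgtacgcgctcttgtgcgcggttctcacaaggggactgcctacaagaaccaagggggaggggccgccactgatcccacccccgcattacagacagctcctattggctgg
Cox7a1 (chr7:30183921-30184170, plus strand): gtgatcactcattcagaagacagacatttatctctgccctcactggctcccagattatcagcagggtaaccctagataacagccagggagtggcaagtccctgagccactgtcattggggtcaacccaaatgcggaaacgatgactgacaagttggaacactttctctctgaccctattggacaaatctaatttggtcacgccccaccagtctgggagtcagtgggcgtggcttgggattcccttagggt
Cox6a1 (chr5:115348959-115349208, minus strand): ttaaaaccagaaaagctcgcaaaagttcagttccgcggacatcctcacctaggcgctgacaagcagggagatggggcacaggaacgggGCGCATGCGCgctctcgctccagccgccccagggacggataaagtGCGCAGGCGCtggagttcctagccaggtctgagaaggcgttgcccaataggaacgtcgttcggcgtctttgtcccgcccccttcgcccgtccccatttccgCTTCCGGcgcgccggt
Uqcrh (chr4:116075071-116075320, minus strand): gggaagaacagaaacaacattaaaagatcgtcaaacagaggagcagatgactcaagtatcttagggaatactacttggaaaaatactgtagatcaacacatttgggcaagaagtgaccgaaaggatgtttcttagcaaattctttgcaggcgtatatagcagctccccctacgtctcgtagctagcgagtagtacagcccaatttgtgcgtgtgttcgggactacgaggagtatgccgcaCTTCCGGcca

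Cox6a1 holds the NRF1 letters at a pair of places and the ETS letters next to the start, and Uqcrh holds the ETS letters next to the start. A match says only that these letters are present, and their absence elsewhere says nothing about a factor.

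Among nuclear subunits past the floor, those with shorter transcripts had the higher ratios. The Spearman correlation of log2 ratio with the longest annotated transcript was -0.42 over 76 subunits, against -0.01 over 8795 genes. With mean CPM it was 0.18 over 77 subunits. These are descriptions across genes, which share the same libraries.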

How the data were processed

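The deposited matrix holds UMI counts per gene and cell, with no normalization by the authors, for 19394 genes and 5135 cells. Cell Ranger 3.0.1 and build mm10 are named per the submitters' processing notes. Barcode endings assigned cells to libraries: CTRL was read as vehicle and PANO as panobinostat. Cells had been filtered before deposit (at least 1798 genes, at most 9.98% mitochondrial UMIs), by rules that no source used here gives. No doublet caller was run here.

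UMIs were summed over each library's cells and scaled to 1000000 (CPM). Ratios are panobinostat over vehicle, with exact conditional binomial (Clopper-Pearson) 95% intervals. A call needed 2-fold, an interval that excludes equality and 10 CPM in at least 1 library. It is a rule of size, not a test of treatments. PCR, cells, cultures and animals add variation that the intervals leave out. In simulated counts, 50 of 50 genes set at 3-fold, 50 of 50 at 1/3 and 50 of 50 at 8-fold were called, and 0 of 50 at 1.5-fold and 0 of 8132 unchanged genes. These counts held counting error alone, and the changed genes were picked well above the floor. No gene was set near 2-fold, so the simulation checks the calculation and not calls close to that line.

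Phases were scored with scanpy 1.11.5 from 43 S and 54 G2/M genes. Clusters used 2000 variable genes without the members, 30 components, 15 neighbours and leidenalg 0.10.2 at resolution 0.5. A cluster's leading genes had the largest fold over other cells (pseudocount 10 CPM) among genes in at least 25% of its cells. The depth for thinning, 18663 UMIs, is that of the 10th percentile of all cells. Alternatives were TMM factors (edgeR 4.0.16), size factors (DESeq2 1.42.0, both with R 4.3.3), other totals, floors, folds and sets of cells. The software was Python 3.11.15 with pandas 2.3.3, scipy 1.17.1 and numpy 2.4.6. Of 103 members, 102 matched GENCODE M21 by a unique symbol.

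Named are the 13 mitochondrial-genome genes, called members, the 3 highest and 3 lowest nuclear subunits of each complex, core subunits of complexes I and II, isoform pairs, c-ring genes, up to 4 genes per list and 7 genes always. The 7 are Ppargc1a, Nrf1, Gabpa, Esrra, Tfam, Polrmt and Cycs. A few genes that these rules pick are left out of the text. Ndufa7, Ndufaf2, Ndufaf4, Ndufaf6, Cox8a, Uqcrfs1 and Cyc1 were named after their values were seen. The members and lists were chosen with earlier results of these data known.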

Additional observations from a re-analysis of the deposited data

How the results depend on the processing

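Each treatment has 1 library, so the alternatives say nothing about variation between cultures, and the intervals reflect counting depth alone. No paired analysis was possible because each group has 1 library, and for the same reason no replicate was left out.

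The median log2 ratio of nuclear subunits stayed between 0.29 and 0.48 in all settings run, and 0 nuclear subunits were called lower in any. It was 0.30 with TMM factors and 0.29 with DESeq2 size factors. The count called higher was 7 to 11 except 33 at 1.5-fold and 14 over cells under 5% mitochondrial UMIs.

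The log2 ratios of summed CPM, mitochondrial genome first and nuclear subunits second, were 0.25 and 0.39 with TMM factors, 0.24 and 0.38 with DESeq2 size factors, and 0.43 and 0.57 centred on the median gene. They were 0.39 and 0.53 with totals without the mitochondrial genome and 0.40 and 0.54 with totals without any member. Over G1-scored cells they were 0.20 and 0.46, over cells of 20000 to 50000 UMIs 0.37 and 0.51, as a mean over cells 0.38 and 0.48, and over thinned cells 0.37 and 0.50.

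Over cells under 5% mitochondrial UMIs (1322 vehicle and 198 panobinostat cells, a choice made on the measured share itself) they were 0.016 and 0.53, and the median of the mitochondrial-genome genes was -0.14. In alternatives chosen after seeing the data, they were 0.35 and 0.51 over cells of 1 to 9% mitochondrial UMIs, and 0.35 and 0.51 without cluster 9.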
